A study of Homo sapiens with 15 samples.

Results

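The mitochondrial ribosomal protein genes were followed in the human cell line MV4-11, which was established from an acute myeloid leukemia, 24 h after adding one of 4 compounds or the vehicle. Members were all protein-coding genes of the array's annotation with a symbol that starts with MRPL or MRPS and a digit, which gave 73 of 14812 named genes. Pseudogenes (2) and antisense noncoding RNAs (2) that carry such symbols were left out. The 5 groups were OTX015 at 300 nM, DW71177 at 300 nM, RVX208 at 5 uM, DW71374 at 300 nM and DMSO, with 3 arrays each. All groups share the line's known lesions, the KMT2A-AFF1 fusion gene and an internal duplication that activates FLT3. The labels describe triplicate wells without naming separate cultures. The p-values therefore reflect the spread among these arrays alone, and that spread may be technical.

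Mitochondria keep their own ribosome, which makes only the membrane proteins that mitochondrial DNA encodes, most of them of the respiratory chain. All of its proteins are encoded in the nucleus, made in the cytosol and imported, and they join RNAs transcribed inside the organelle to form a large and a small subunit. Some of these proteins descend from bacterial ribosomal proteins, and others occur only in mitochondrial ribosomes. BET proteins read acetylated lysines through paired bromodomains. Birabresib (OTX015) occupies both domains, while apabetalone (RVX208) binds the second one more tightly. For DW71177 and DW71374 the labels give a code name only.

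Of the 73 members, 50 belong to the large subunit and 23 to the small subunit. In the large subunit 29 were classed as having a bacterial relative and 21 as without one, and in the small subunit 13 and 10. The paralogs MRPS18A and MRPS18B were classed as without one. MRPS18A and MRPS30 were counted with the large subunit, where their proteins sit despite their symbols. The members lie on 21 chromosomes. MRPL12, MRPS6, MRPS18C and MRPS24 were not analysed here.

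Values are log2 signals, and a difference of 1 on this scale is a 2-fold change. Array medians lay between 3.72 and 3.79, and the correlation of replicate arrays over genes was 0.992 to 0.995. Averaged over the 15 arrays, members had signals of 4.58 to 9.41 with a median of 6.67, and 3 members averaged under 5. Of 12 myeloid markers 8 were measured, and with DMSO they averaged 11.1 (LYZ), 11.0 (PRTN3), 9.85 (AZU1), 9.80 (FLT3), 7.66 (SPI1), 7.02 (CSF1R), 6.76 (CD4) and 4.59 (MPO), the last below the median gene. Of the epithelial and stromal markers, EPCAM and KRT5 averaged 2.64 and 2.72 with DMSO, below the array medians, whereas VIM and KRT18 averaged 6.31 and 7.74, above them. Array medians were nearly equal as deposited, so a difference is read against the rest of its array, and in these bulk samples fewer cells of a type and less RNA per cell cannot be told apart.

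Most of the family was lower with OTX015. Limma, fitted over all 14812 genes with Benjamini-Hochberg adjustment, called 53 of 73 members lower than DMSO and 0 higher at an adjusted p under 0.05, beside 14.5% of all genes called lower and 11.2% called higher. At an unadjusted p under 0.05, 56 members were lower and 0 higher, beside 2701 and 2245 of all 14812 genes. The falls were small and shared: the median member differed by -0.33 on the log2 scale with quartiles of -0.455 and -0.172, while the median of all genes was 0.00. In 56 members all 3 OTX015 arrays lay below all 3 DMSO arrays, as did 19.5% of all genes. Members are brighter than most genes, so limma was also refitted, with p-values adjusted anew, to the 7406 genes above the median level alone. In that refit 29.7% of genes were called lower with OTX015, against 54 of the 71 members found there. Later counts for genes above the median level come from the same refit. These shares are not parts of those over all 14812 genes. Some myeloid markers moved beside the family: 5 of 8 measured were lower with OTX015, and LYZ averaged 10.1 with OTX015, against 11.1 with DMSO. The others, AZU1 (log2 difference 0.12), FLT3 (0.07) and CD4 (-0.01), were not called with OTX015. Of the markers of other cell types, NKG7 was lower (6.26 with OTX015, against 7.46 with DMSO), PF4 was lower (5.57, against 5.92 with DMSO) and VIM was higher (6.47, against 6.31 with DMSO), while EPCAM stayed at 2.64 in both groups. With DW71177, 4 of the 8 myeloid markers were lower, beside 9.88% of all genes, with log2 differences of -1.15 for LYZ and -1.06 for CSF1R. AZU1 (0.15), CD4 (0.04), FLT3 (0.02) and SPI1 (-0.15) were not called with DW71177. Both measured lymphoid markers, NKG7 (-0.83) and CD2 (-0.29), were lower with this compound. With RVX208, 4 myeloid markers (LYZ at -0.75) and NKG7 (-0.59) were lower, beside 3.11% of all genes. With DW71374 limma called 0 of these markers, as among all genes (0% called). CD4 (0.13), FLT3 (0.02), SPI1 (-0.01) and AZU1 (-0.07) were not called with RVX208. The part of these markers in the family's falls was not tested.

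The shift was seen in each of the 3 OTX015 arrays, and smaller ones were seen with 2 other compounds. The median over members of the signal minus the DMSO mean was -0.350, -0.307 and -0.302 in the OTX015 arrays, -0.195, -0.173 and -0.221 in the DW71177 arrays, and -0.105, -0.081 and -0.060 in the RVX208 arrays. In the DW71374 arrays it was 0.007, -0.017 and 0.015, against -0.015, 0.005 and 0.003 in the DMSO arrays. The OTX015, DW71177 and RVX208 arrays thus formed 3 tiers without overlap, and the DW71374 arrays overlapped DMSO.

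**Figure D1:**
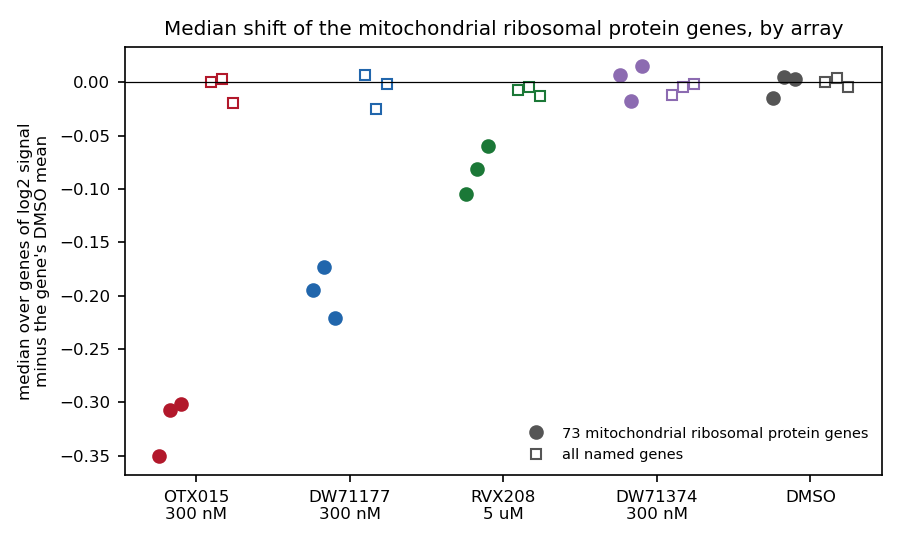
Median over genes of the log2 signal minus each gene's DMSO mean, for each of the 15 arrays; filled circles are the 73 mitochondrial ribosomal protein genes and open squares all 14812 named genes. The members' medians run from -0.350 in an OTX015 array to 0.015 in a DW71374 array, while those of all genes stay between -0.025 and 0.007.

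MRPL3, a large subunit protein with a bacterial relative near the catalytic centre, fell most with OTX015. Its log2 signal was 7.89, 7.98 and 8.09 with OTX015, 8.38, 8.37 and 8.35 with DW71177, 8.65, 8.72 and 8.75 with RVX208, 9.24, 9.19 and 9.18 with DW71374, and 9.16, 9.18 and 9.22 with DMSO. The OTX015, DW71177 and RVX208 arrays formed 3 separate tiers below the DMSO arrays, and the DW71374 arrays overlapped DMSO. The difference from DMSO was -1.20 ± 0.058 with OTX015, a 2.30-fold fall (SE of the fit, n = 3 and 3, limma adjusted p = 6.4e-09).

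Another 4 large subunit genes with bacterial relatives were among the 10 largest falls. MRPL15 read 7.16, 7.26 and 7.48 with OTX015, against 8.02, 8.11 and 8.08 with DMSO, a 1.71-fold fall (limma adjusted p = 3.5e-06). MRPL11, which sits at the base of the flexible stalk that recruits translation factors, read 5.88, 6.14 and 6.11 with OTX015, against 6.78, 6.77 and 6.71 with DMSO. In both genes every OTX015 array lay below every DMSO array, and MRPL11 fell 1.63-fold (limma adjusted p = 7.2e-05). MRPL24 read 6.22, 6.14 and 5.97 with OTX015, against 6.70, 6.86 and 6.86 with DMSO. MRPL4 read 7.34, 7.24 and 7.23 with OTX015, against 7.85, 7.91 and 8.02 with DMSO. These fell 1.62- and 1.58-fold, again without overlap between the groups. MRPL39, which has no bacterial relative, read 5.57, 5.79 and 5.84 with OTX015, against 6.30, 6.44 and 6.40 with DMSO, a 1.57-fold fall.

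The small subunit held 4 of the 10 largest falls. MRPS17 read 6.16, 6.17 and 6.33 with OTX015, against 6.99, 7.06 and 6.88 with DMSO (-0.76 ± 0.087, limma adjusted p = 1.6e-05). MRPS34, found only in mitochondria, read 7.81, 7.95 and 7.94 with OTX015, against 8.71, 8.66 and 8.59 with DMSO (-0.76 ± 0.061, limma adjusted p = 6.6e-07). Both fell 1.69-fold. MRPS12, the relative of the bacterial protein at the decoding site where streptomycin acts, read 5.97, 6.14 and 6.16 with OTX015, against 6.85, 6.75 and 6.70 with DMSO, a 1.60-fold fall. MRPS7 read 7.36, 7.27 and 7.36 with OTX015, against 7.97, 7.81 and 7.93 with DMSO, a 1.49-fold fall. The OTX015 and DMSO arrays did not overlap in any of these 4 genes.

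**Figure D2:**
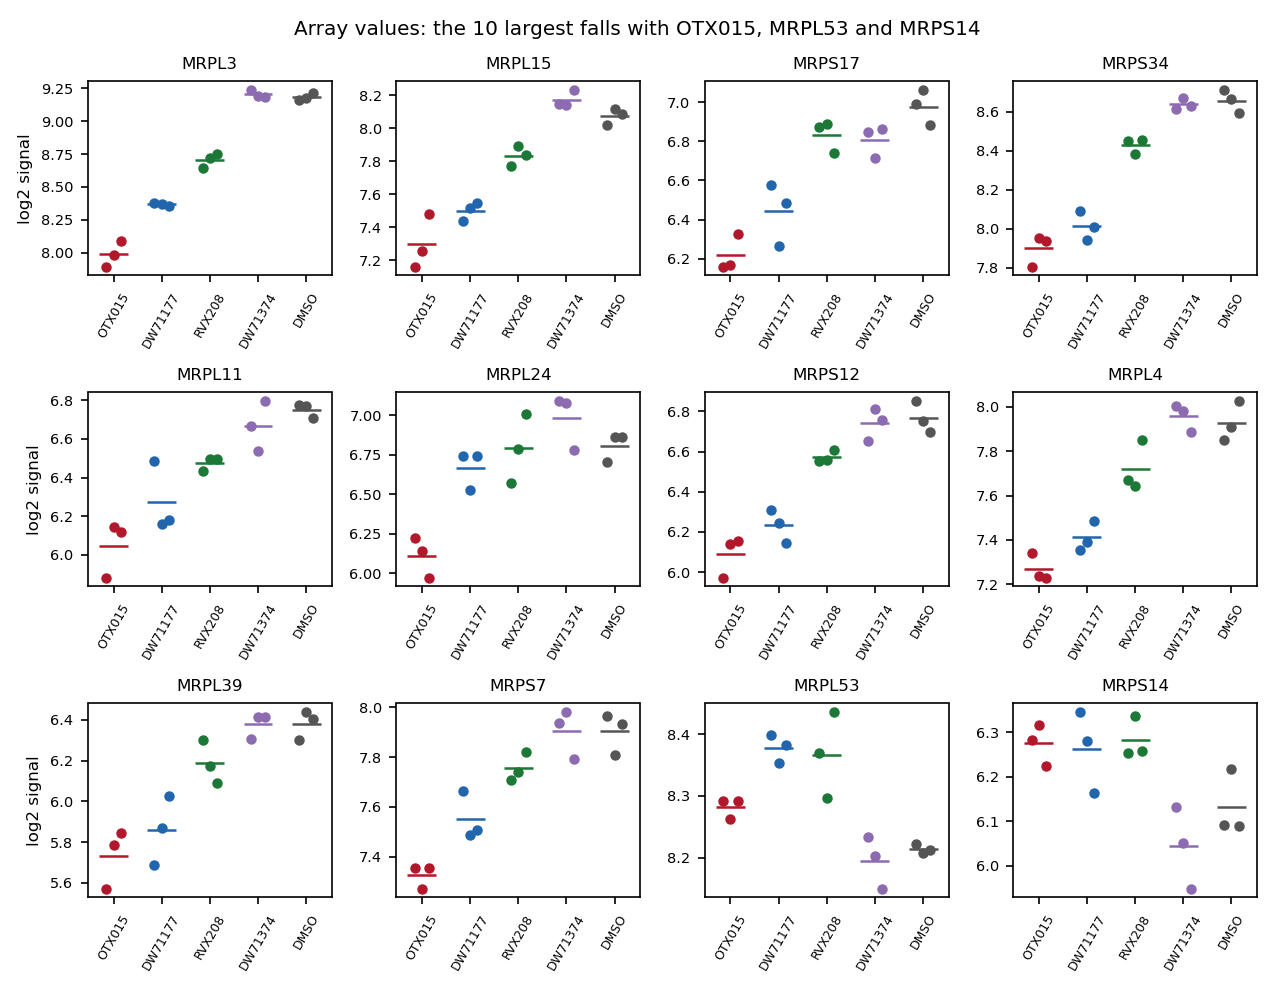
Log2 signal on each of the 15 arrays for the 10 members with the largest falls with OTX015 and for MRPL53 and MRPS14; points are arrays, bars are group means, and each panel has its own axis. In MRPL3 the OTX015 arrays lie between 7.89 and 8.09 and the DMSO arrays between 9.16 and 9.22, whereas MRPL53 lies between 8.26 and 8.29 with OTX015 and between 8.21 and 8.22 with DMSO.

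Members with a known role of their own had falls of several sizes. MRPL58, a peptidyl-tRNA hydrolase built into the large subunit, fell 1.37-fold with OTX015 (log2 -0.45 ± 0.059, limma adjusted p = 4.7e-05). MRPL36, a small protein that joins the large subunit late in assembly, and MRPL33 each fell 1.44-fold. MRPS16, a gene mutated in inherited respiratory chain disease, fell 1.23-fold, MRPS30 fell 1.22-fold and MRPL44, a protein of the ribonuclease III family, fell 1.17-fold. The MRPL44 call was narrow at an adjusted p of 0.036 and was lost under 8 of the alternatives tried. The paralogs MRPS18A and MRPS18B read apart: MRPS18B, a small subunit protein, fell by 0.37 ± 0.060 (limma adjusted p = 0.00034), whereas MRPS18A, in the large subunit, differed by 0.03 ± 0.062 and did not pass. The difference between these paralogs was not tested.

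A minority of members were not called with OTX015. The smallest differences were those of MRPS10 (-0.03), MRPS18A (0.03), MRPS33 (0.04), MRPS22 (-0.06), MRPL53 (0.07) and MRPS11 (-0.07). MRPS22, another gene of inherited respiratory chain disease, read 6.69, 6.77 and 6.64 with OTX015, against 6.80, 6.69 and 6.79 with DMSO, and the groups overlapped. The 95% interval of its difference ran from -0.21 to 0.09. MRPL41, studied outside the ribosome as a binding partner of BCL2, differed by -0.09 (-0.29 to 0.12). MRPL10, a stalk protein, differed by -0.08 (-0.22 to 0.05). The largest positive differences, in MRPS14 and MRPS31, were 0.14 ± 0.068 and 0.14 ± 0.090 and did not pass (limma adjusted p = 0.16 and 0.31), although the 3 OTX015 arrays of MRPS14 lay above all DMSO arrays.

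Falls with OTX015 occurred in both subunits. In the large subunit 37 of 50 genes were called lower with a median difference of -0.32, and in the small subunit 16 of 23 with a median of -0.35. Genes classed as having a bacterial relative were called lower in 33 of 42 cases (median -0.35) and those classed as without one in 20 of 31 (median -0.29). With DW71177 the corresponding counts were 23 of 42 (median -0.246) and 11 of 31 (median -0.15). Over all genes 14.5% were called lower with OTX015 and 9.88% with DW71177. These are counts over members, which are not replicates, and the classes were not tested against each other.

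**Figure D3:**
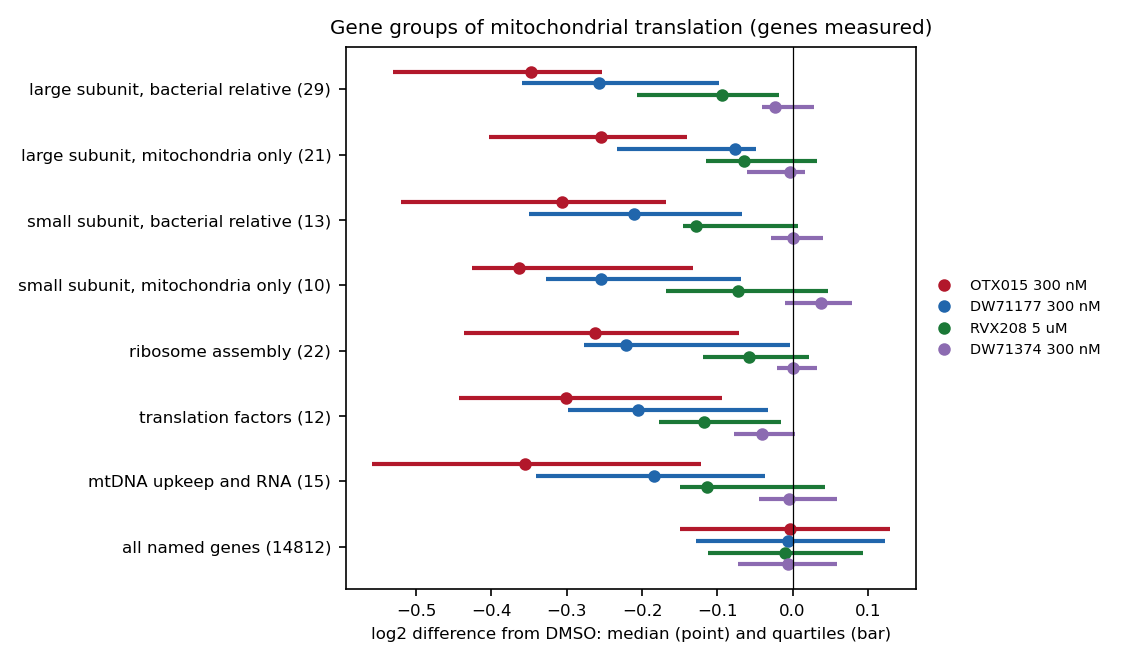
Median (point) and quartiles (bar) of the log2 difference from DMSO for 4 classes of members, 3 lists of other genes of mitochondrial gene expression and all named genes, by compound, with the number of genes in brackets. In the 4 classes the medians with OTX015 lie between -0.364 and -0.255 and those with DW71374 between -0.023 and 0.038.

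Falls were also seen with DW71177. Limma called 34 members lower and 1 higher, beside 9.88% of all genes called lower and 9.95% called higher. The counts at an unadjusted p under 0.05 were 40 lower and 3 higher, beside 2160 and 2204 of all 14812 genes. The median member differed by -0.17, with quartiles of -0.337 and -0.055. In 40 members the 3 DW71177 arrays lay below all DMSO arrays, as did 16.2% of all genes. In the refit to genes above the median level 22.0% were called lower and 22.8% higher, and of the 71 members there 36 were lower and 3 higher. The comparisons with DMSO share its 3 arrays.

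The largest falls with DW71177 were those of MRPL3, at -0.82 ± 0.058 or 1.77-fold (limma adjusted p = 4.9e-07), and MRPS34, at -0.64 ± 0.061 or 1.56-fold (limma adjusted p = 6e-06). MRPS34 read 8.09, 7.94 and 8.01 with DW71177, against 8.71, 8.66 and 8.59 with DMSO. MRPL15, MRPS17, MRPS12, MRPL39, MRPL4, MRPL36, MRPL11 and MRPL21 fell 1.36- to 1.49-fold, each with all DW71177 arrays below all DMSO arrays. MRPL21, a large subunit protein with a bacterial relative, read 6.06, 6.13 and 5.94 with DW71177, against 6.49, 6.46 and 6.50 with DMSO.

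MRPL53, a large subunit protein found only in mitochondria, was the single member called higher than DMSO. It read 8.40, 8.35 and 8.38 with DW71177, against 8.22, 8.21 and 8.21 with DMSO, a 1.12-fold rise with no overlap (0.16 ± 0.052, limma adjusted p = 0.04). This call was narrow and was lost under 10 of the alternatives tried. MRPL55 was the single member called lower with DW71177 and not with OTX015, at -0.31 ± 0.082 (limma adjusted p = 0.014) against -0.14 ± 0.082 with OTX015, and the 2 compounds were not shown to differ in it (limma adjusted p of the direct comparison = 0.36).

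RVX208, used at 5 uM, gave smaller values. Limma called 4 members lower and 0 higher, beside 3.11% of all genes called lower and 3.41% called higher. The share of members called, 5.48%, was near that background. The counts at an unadjusted p under 0.05 were 16 lower and 2 higher, beside 1490 and 1448 of all 14812 genes. The median member differed by -0.08, and in 24 members the 3 RVX208 arrays lay below all DMSO arrays, as did 13.3% of all genes. MRPL3 fell 1.39-fold (-0.48 ± 0.058, limma adjusted p = 0.00026). MRPL21 fell 1.23-fold, MRPS5 1.19-fold and MRPS34 1.17-fold (limma adjusted p = 0.028, 0.024 and 0.041), calls that were lost under 8, 6 and 11 of 17 alternatives. MRPS34 read 8.45, 8.38 and 8.45 with RVX208, against 8.71, 8.66 and 8.59 with DMSO, and MRPS5, a small subunit relative of a bacterial protein, read 8.02, 7.91 and 8.03 with RVX208, against 8.28, 8.20 and 8.23 with DMSO. The groups did not overlap in either gene. The count dropped to 1 or 2 when any single RVX208 or DMSO array was left out, and it was 13 among genes above the median level, 12 lower and 1 higher, beside 9.98% and 11.1% of those genes.

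DW71374 at 300 nM gave 0 calls among members in either direction, as among all genes (0% called), with limma. At an unadjusted p under 0.05, 1 member was lower and 3 were higher, beside 413 and 273 of all 14812 genes. The smallest p-values belonged to MRPL37 (-0.15 ± 0.057), MRPS21 (0.22 ± 0.083), MRPL35 (0.17 ± 0.069) and MRPL51 (0.15 ± 0.069), all with a limma adjusted p of 0.99. The median member differed by 0.00. For 65 of 73 members the 95% interval of the difference stayed within 1.25-fold either way, and for all 73 within 1.5-fold, the widest bounds being -0.36 and 0.43 on the log2 scale.

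**Figure D4:**
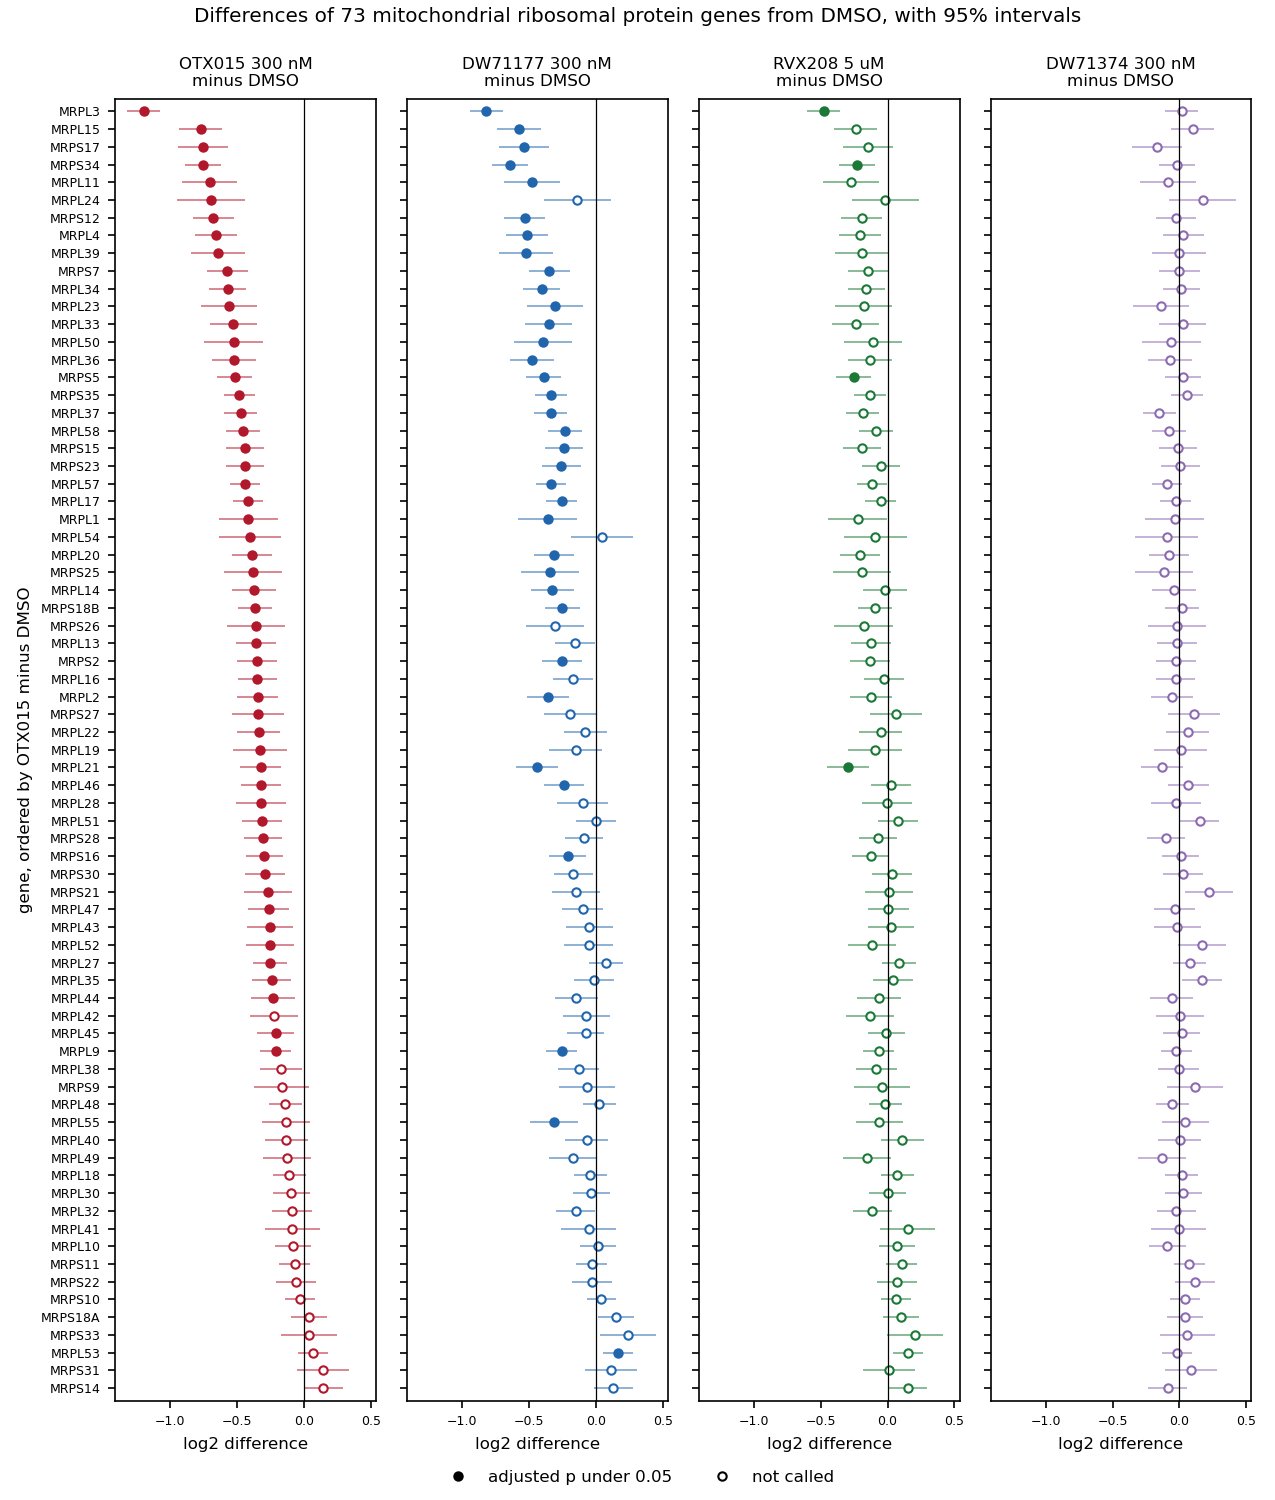
Log2 difference from DMSO with its 95% interval for each of the 73 members (rows, ordered by OTX015 minus DMSO) and each compound (columns); filled points passed the test. Filled points number 53 with OTX015, 35 with DW71177, 4 with RVX208 and 0 with DW71374.

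The compounds used at 300 nM were compared directly in 3 pairs, with p-values adjusted over all genes within each pair. DW71177 against DW71374 gave 33 members lower and 2 higher, beside 9.51% and 9.98% of all genes. OTX015 against DW71374 gave 50 lower and 1 higher, beside 14.0% and 11.1%. MRPS14 was higher in both pairs, by 0.22 ± 0.068 with DW71177 and 0.23 ± 0.068 with OTX015 (limma adjusted p = 0.036 and 0.022), and MRPL53 was higher with DW71177. MRPL3 was the largest fall in each pair, at -0.84 ± 0.058 with DW71177 and -1.22 ± 0.058 with OTX015 relative to DW71374.

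Few members passed the test between DW71177 and OTX015. Limma called 4 members higher with DW71177 than with OTX015 and 0 lower, beside 1.07% and 0.182% of all genes. The counts at an unadjusted p under 0.05 were 28 higher and 1 lower, beside 1402 and 630 of all 14812 genes. In 65 of 73 members the DW71177 mean lay above the OTX015 mean, with a median difference of 0.13, and in 30 members all 3 DW71177 arrays lay above all OTX015 arrays, as did 10.5% of all genes. MRPL24 differed by 0.56 (95% interval 0.30 to 0.81, limma adjusted p = 0.039), MRPL3 by 0.38 (0.25 to 0.50, limma adjusted p = 0.008), MRPL27 by 0.33 (0.20 to 0.45, limma adjusted p = 0.018) and MRPL51 by 0.31 (0.16 to 0.46, limma adjusted p = 0.047).

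These 4 genes did not share a form. MRPL24 read 6.74, 6.53 and 6.74 with DW71177, against 6.22, 6.14 and 5.97 with OTX015, and the DW71177 arrays overlapped those of DMSO. MRPL27, a relative of a bacterial protein near the catalytic centre, read 6.06, 6.13 and 6.06 with DW71177, against 5.72, 5.81 and 5.73 with OTX015. With DMSO MRPL27 read 6.01, 6.02 and 5.99, below all 3 DW71177 arrays. MRPL51, found only in mitochondria, read 6.41, 6.45 and 6.32 with DW71177, against 5.95, 6.15 and 6.16 with OTX015. In these 3 genes the DW71177 arrays lay above the OTX015 arrays and DW71177 did not pass the test against DMSO, whereas MRPL3 fell with both compounds and by more with OTX015. The count of 4 was not stable: it was 1 or 2 when any single array of either compound was left out, 0 with the 6 arrays alone and 10 among genes above the median level, all higher, beside 6.52% of those genes called higher and 1.09% lower. For 44 members the interval of the difference stayed within 1.25-fold and for 71 within 1.5-fold.

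**Figure D5:**
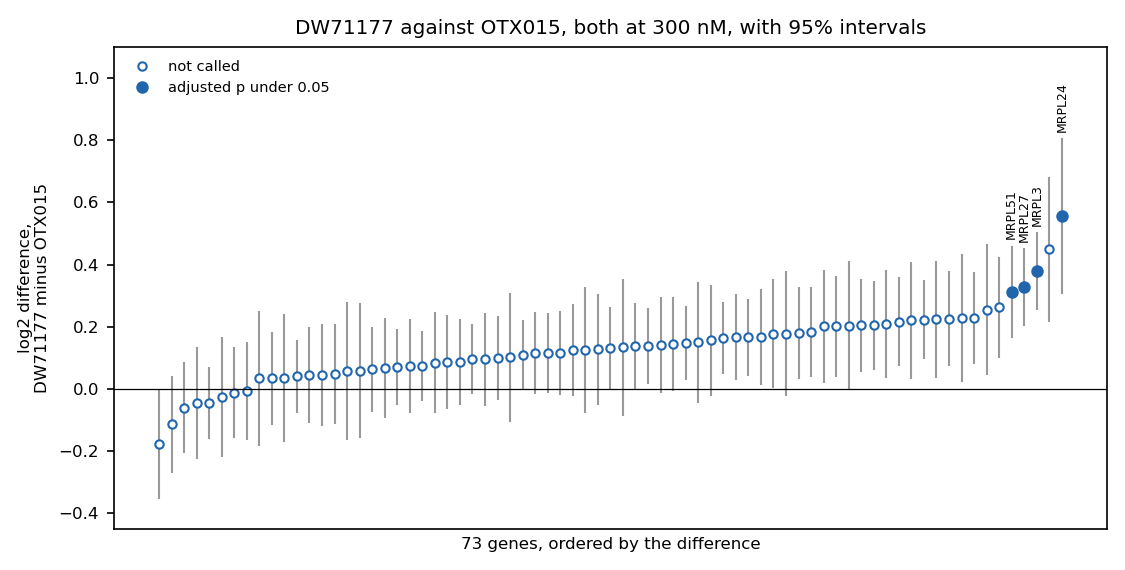
Log2 difference DW71177 minus OTX015, both at 300 nM, with 95% intervals for the 73 members in order of size; filled points passed the test and are named. Differences run from -0.18 to 0.56, and 65 of 73 points lie above 0.

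RVX208 was used at another dose, so its values are only set beside the others. The median member difference from DMSO was -0.33 with OTX015, -0.17 with DW71177 and -0.08 with RVX208, all 3 sharing the same DMSO arrays. The means of 41 of 73 members followed the full order, with OTX015 below DW71177, DW71177 below RVX208 and RVX208 below DMSO. For MYC, a transcription factor known to drive ribosome and mitochondrial genes, the differences were -1.42 ± 0.054 (OTX015), -1.16 ± 0.054 (DW71177) and -0.32 ± 0.054 (RVX208). Whether MYC had a part in the members' falls was not tested.

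The starts of members' genes were examined because members moved together. RefSeq (GRCh38.p14) windows from 250 bases before to 50 after the start were found for 65 members. The ETS-type motif CCGGAAG was in 43.1% of them on either strand, against 10.7% of all 27305 windows and 1608 of 10736 windows of genes named on the array. The E-box CACGTG, the form bound by MYC with MAX, was in 7.69% of member windows, against 7.43% of all windows and 9.03% of those of genes named on the array. The core GCATGCG of the motif of NRF1, a regulator of nuclear genes for mitochondria, was in 9.23%, against 4.13% and 5.46%. Members called lower with OTX015 held CCGGAAG in 18 of 46 windows and those not called in 10 of 19, and the median OTX015 difference was -0.27 with the motif and -0.37 without it. For the E-box these medians were -0.34 with it and -0.33 without it, and for the NRF1 core -0.35 and -0.32. The splits by motif were not tested. The median GC content was 60.3% in member windows, 58.3% in all windows and 63.3% in those of genes named on the array.

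Windows are printed for 2 of the genes with the largest falls, a gene with the NRF1 core and a gene that did not pass, each 5′ to 3′ on the gene's strand, with stretches matching any of the 3 motifs or their reverse complements in capitals. MRPL3 lies at chr3:131502922-131503221 (minus strand), MRPS34 at chr16:1773085-1773384 (minus), MRPL17 at chr11:6683291-6683590 (minus) and MRPS22 at chr3:139343744-139344043 (plus), in GRCh38.p14.
MRPL3: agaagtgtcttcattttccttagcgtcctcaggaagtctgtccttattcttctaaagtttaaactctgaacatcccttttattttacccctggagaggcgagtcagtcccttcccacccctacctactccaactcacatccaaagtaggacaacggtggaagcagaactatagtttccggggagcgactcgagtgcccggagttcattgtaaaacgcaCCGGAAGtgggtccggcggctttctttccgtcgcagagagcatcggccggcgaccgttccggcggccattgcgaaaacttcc
MRPS34: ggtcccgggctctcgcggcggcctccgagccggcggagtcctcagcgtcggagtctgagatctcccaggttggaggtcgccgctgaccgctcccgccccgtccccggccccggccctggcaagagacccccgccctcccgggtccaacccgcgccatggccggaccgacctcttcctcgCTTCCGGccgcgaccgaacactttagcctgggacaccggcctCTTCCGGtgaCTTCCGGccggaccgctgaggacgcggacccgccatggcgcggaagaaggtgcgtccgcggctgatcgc
MRPL17: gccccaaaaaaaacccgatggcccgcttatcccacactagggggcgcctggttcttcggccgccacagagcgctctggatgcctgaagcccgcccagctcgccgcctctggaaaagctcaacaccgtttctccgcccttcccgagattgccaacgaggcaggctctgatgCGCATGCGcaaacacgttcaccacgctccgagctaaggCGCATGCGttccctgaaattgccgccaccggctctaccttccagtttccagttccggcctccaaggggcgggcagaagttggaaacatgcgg
MRPS22: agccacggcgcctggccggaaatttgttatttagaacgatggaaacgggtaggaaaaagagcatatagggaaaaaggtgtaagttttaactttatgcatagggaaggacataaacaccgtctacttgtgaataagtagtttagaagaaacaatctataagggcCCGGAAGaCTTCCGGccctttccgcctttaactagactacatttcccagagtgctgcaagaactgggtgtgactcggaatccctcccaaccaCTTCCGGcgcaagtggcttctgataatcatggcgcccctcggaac
MRPS34 and MRPS22 each hold 3 copies of CCGGAAG or its reverse complement, and MRPS34 fell 1.69-fold with OTX015 and MRPS22 did not pass the test. MRPL17, whose window holds 2 stretches with the NRF1 core, fell by 0.42 with OTX015. A match is a description of letters and shows no binding.

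Some members share a start region with a neighbouring gene. Of the 65 members, 17 (26.2%) had a protein-coding neighbour on the other strand that starts within 1000 bases and runs the other way, against 10.3% of 15842 protein-coding genes. MRPL46 and MRPS11 are such neighbours of each other, with 320 bases between their starts. MRPL46, a large subunit protein, read 6.83, 6.996 and 7.02 with OTX015, against 7.25, 7.36 and 7.21 with DMSO, and fell by 0.32 ± 0.070 (limma adjusted p = 0.0031). MRPS11, a small subunit protein, read 6.82, 6.81 and 6.87 with OTX015, against 6.90, 6.90 and 6.92 with DMSO, and differed by -0.07 ± 0.054 (limma adjusted p = 0.42). The difference between these genes was not tested, and the pair was singled out after the values were seen, as were MRPS14, MRPS31 and MRPL55 above. Their windows, at chr15:88467339-88467638 (minus) and chr15:88467458-88467757 (plus) in GRCh38.p14, overlap and hold none of the 3 motifs.
MRPL46: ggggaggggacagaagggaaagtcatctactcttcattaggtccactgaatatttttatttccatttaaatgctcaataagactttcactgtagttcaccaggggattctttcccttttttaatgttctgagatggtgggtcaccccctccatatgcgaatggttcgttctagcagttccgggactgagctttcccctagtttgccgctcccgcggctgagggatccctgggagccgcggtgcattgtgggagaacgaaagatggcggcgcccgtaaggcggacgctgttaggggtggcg
MRPS11: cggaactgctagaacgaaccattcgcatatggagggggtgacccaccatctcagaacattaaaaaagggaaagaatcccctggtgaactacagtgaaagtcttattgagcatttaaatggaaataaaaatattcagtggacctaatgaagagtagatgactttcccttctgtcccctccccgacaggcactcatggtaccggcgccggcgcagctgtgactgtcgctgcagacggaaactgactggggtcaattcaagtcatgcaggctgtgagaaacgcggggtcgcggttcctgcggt
Of 10 measured neighbours of members, counting MRPL46 and MRPS11, 6 were called lower with OTX015 and 0 higher in limma, beside 14.5% and 11.2% of all genes. Of the 7 measured neighbours of members that were themselves called lower, 3 were called lower. FAU, HIRA and MRPL46, the measured neighbours of members not called, were all called lower.

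Other genes of mitochondrial gene expression were read from lists chosen for this family. Their counts stand beside shares over all genes of 14.5% lower and 11.2% higher with OTX015, 9.88% and 9.95% with DW71177, and 3.11% and 3.41% with RVX208, and several of the RVX208 counts are near that background. Of 3 measured ribosomal proteins with other symbols, PTCD3 and CHCHD1 fell with OTX015, by 0.28 and 0.44, and DAP3 differed by 0.08. Of 22 ribosome assembly genes 12 fell and 2 rose with OTX015 (median -0.26), 11 fell and 2 rose with DW71177 (median -0.22), and 0 fell and 1 rose with RVX208 (median -0.06). TRUB2, a pseudouridine synthase, fell by 0.59 ± 0.067 with OTX015 (limma adjusted p = 1.4e-05), the RNA methyltransferase gene MRM1 fell by 0.52, and RBFA, which matures the small subunit, fell by 0.56. NOA1, a GTPase of small subunit assembly, went the other way: it rose 1.45-fold with OTX015, 1.45-fold with DW71177 and 1.21-fold with RVX208 (limma adjusted p = 1.2e-05, 2e-05 and 0.012). The other genes called higher, named after their values were seen, were MTG1 with OTX015 (0.28 ± 0.076) and YBEY with DW71177 (0.28 ± 0.084).

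Of 12 translation factor genes 8 fell and 1 rose with OTX015 (median -0.30), 4 fell and 1 rose with DW71177 (median -0.21), and 1 fell and 1 rose with RVX208 (median -0.12). TACO1, an activator of translation of a cytochrome oxidase subunit, fell by 0.58 with OTX015, MTRFR by 0.47 and LRPPRC, which stabilises mitochondrial messenger RNAs, by 0.33. MTFMT, the enzyme that formylates the initiator methionyl-tRNA, was the riser with each of these compounds: 1.67-fold with OTX015, 1.59-fold with DW71177 and 1.40-fold with RVX208 (limma adjusted p = 2.2e-05, 9.6e-05 and 0.0048). Its difference with DW71374 was 0.08 ± 0.089.

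Of 15 genes of mitochondrial DNA upkeep and RNA processing 10 fell and 0 rose with OTX015 (median -0.36), 7 fell and 0 rose with DW71177 (median -0.18), and 2 fell and 0 rose with RVX208 (median -0.11). TWNK, the mitochondrial DNA helicase, fell 1.86-fold with OTX015, 1.93-fold with DW71177 and 1.31-fold with RVX208 (limma adjusted p = 3e-07, 4.6e-07 and 0.0027). PNPT1, an RNA-degrading phosphorylase, fell 1.69-fold with OTX015, and ELAC2 and MTPAP fell by 0.39 and 0.57. With DW71374, 0 genes of these lists were called by limma. Of 7 candidate regulators, MYC and YY1 fell and NFE2L2 rose with OTX015 (YY1 at a limma adjusted p of 0.049), and NRF1 differed by 0.15 ± 0.073 without passing.

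Of the members, 4 had several features on the array, and the brightest was used. The 7 features of MRPS18B held identical values on every array and are copies of 1 measurement. The second MRPS2 feature fell by 0.27 with OTX015, beside 0.35 for the first, and the second MRPS16 feature by 0.19, beside 0.30. The second MRPL44 feature averaged 1.39, far below the array medians, and showed no change of that size. With DW71177 the second MRPS16 feature differed by -0.04, beside -0.21 for the first. That MRPS16 call was lost under 8 of 17 alternatives. The second MRPS2 feature differed by -0.27 with DW71177, beside -0.25 for the first. Some values repeated exactly between arrays. MRPS25 read 6.4854 on all 3 RVX208 arrays, and MRPL21 read 6.2465 on RVX208 replicates 1 and 2. MRPL44 read 7.6256 on replicates 1 and 2 of both DW71177 and RVX208 and on DMSO replicate 3. Such repeats can lower the estimated spread, and their effect on the calls was not tested.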

How the data were processed

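The study treated MV4-11 cells on 6-well plates and hybridised total RNA to an Affymetrix Human 2.0 ST array, per the labels' protocols. The authors deposited log2 signals for 44629 features on 15 arrays, but how the signals were computed and normalized was not stated in the labels used here. The platform annotation named 1 gene for 15835 features and none for 28794. Where several features named a gene, the one with the highest mean over all arrays was used. A model with 5 group means was fitted with limma 3.58.1 (R 4.3.3) across 14812 genes with 10 residual degrees of freedom, and p-values were adjusted by the Benjamini-Hochberg method within each of 7 comparisons. The fit was tested on simulated data. Arrays limit precision by their number, 3 per group.

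The members and lists were chosen with earlier results of these data known. Named members are the 10 largest falls with OTX015 and with DW71177, the calls with RVX208 and between compounds, the smallest differences with OTX015, the smallest p-values with DW71374, and genes with a role of their own. Of each other list, up to 4 called genes with the smallest p were named. Replicate numbers did not pair the arrays: deviations of same-numbered arrays correlated at -0.087 to 0.098. Alternatives covered feature choice, normalization, dim genes, variance model, array weights, replicate block, arrays fitted, gene set, threshold and each replicate left out. Promoter windows came from RefSeq (GRCh38.p14).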

Additional observations from a re-analysis of the deposited data

How the results depend on the processing

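For named members against DMSO, 0 of 782 values under alternatives changed sign where the call had passed, and 36 of 1394 did where it had not. Several alternatives, such as the threshold, the variance model, the gene set and the replicate block, cannot change a member's difference. Its sign was fixed there, so these counts are no test of the sign under those alternatives. The median over members changed sign in 3 of 11 alternatives for DW71374 against DMSO and in 0 of 11 for each other comparison. Of the values for named members under alternatives, 2089 kept their side of the threshold, 66 lost the call and 21 gained one. Of the counts and medians over members, recomputed for each comparison and alternative, 164 values moved little and 32 moved more. With RVX208 against DMSO the 4 calls became 13 among genes above the median level, 10 with a trended robust variance, 2 with only the 6 arrays compared and 1 at an adjusted p under 0.01. With DW71177 against OTX015 the 4 calls became 2 with quantile normalization, 10 among genes above the median level, 8 with a trended robust variance, 2 with array weights, 0 with only the 6 arrays compared (limma, where 28 higher and 1 lower had an unadjusted p under 0.05 in the fit of all arrays) and 1 at an adjusted p under 0.01. With the replicate number as a block that count was 2, although no pairing by number was seen, and the block moved no other count of calls by over 1.5 times. At an adjusted p under 0.01 the DW71177 counts were 23 against DMSO and 23 against DW71374, and the second was also 23 with only the 6 arrays compared. Quantile normalization gave medians of -0.299 for OTX015 against DMSO and -0.290 for OTX015 against DW71374. Leaving out 1 array at a time gave 44 to 50 calls and medians of -0.343 to -0.321 for OTX015 against DMSO, 27 to 32 and -0.213 to -0.165 for DW71177 against DMSO, 1 to 2 and -0.087 to -0.069 for RVX208 against DMSO, and 0 to 0 and -0.010 to 0.009 for DW71374 against DMSO. It gave 1 to 2 calls and 0.112 to 0.150 for DW71177 against OTX015, 26 to 34 and -0.214 to -0.188 for DW71177 against DW71374, and 43 to 48 and -0.349 to -0.315 for OTX015 against DW71374. The cause of these shifts was not tested. Shares over all genes are given only for the fit as reported and for genes above the median level. The other counts of calls therefore describe stability alone. The arrays come from 1 cell line and 1 time point, a dose series was not analysed here, and wells may be technical replicates.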
